A study of Homo sapiens with 3 samples.

Results

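The genes of the mitochondrial respiratory chain and the ATP synthase were examined in single-cell RNA counts. The cells were HCT116, an established human line from a colorectal carcinoma, with histone H2B tagged by GFP. Members were taken by name: features starting MT-ND, MT-CYB, MT-CO or MT-ATP for the mitochondrial genome, and NDUFA, NDUFB, NDUFC, NDUFS, NDUFV, UQCR, COX4 to COX8 and ATP5 names without a hyphen for the nuclear genome. A mean level of at least 1 CPM over the 3 libraries was required, where CPM is the UMI count of a gene scaled to the same total in every library. This gave 98 genes of 19912 features, 13 of them mitochondrial and 85 nuclear. Among the 93 nuclear names that matched, 8 stayed under the minimum: ATP5MGL, COX4I2, COX6A2, COX6B2, COX7A1, COX7B2, COX8C and NDUFA4L2. COX6B2 lay just outside at a mean of 0.903 CPM, and UQCRHL just inside at 1.70 CPM. COX6A2, a muscle form, had no counts in any library.

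The cells had been cultured in a 2-channel organ-on-chip. The stretched bottom library held cells that had invaded into the lower channel of stretched chips, and the stretched top library held the cells that had stayed above. The not stretched top library held upper-channel cells of chips kept without stretch. Stretch was peristalsis-like and lasted 6 days. All cells were of the same labelled line, were detached with trypsin and were sorted for GFP. Each group was 1 library. No test between groups was therefore possible, every difference is given by its size, and group and library cannot be told apart. Intervals are 95% and cover counting error only.

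The respiratory chain is built from 2 genomes. Complex I takes electrons from NADH, complex III passes them from ubiquinol to cytochrome c, complex IV hands them to oxygen, and complex V, the ATP synthase, uses the proton gradient that the first 3 of these build. The mitochondrial genome encodes core membrane subunits of each, transcribed as long precursors from both strands and then cut into messengers. All other subunits are transcribed in the nucleus and imported.

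After filtering, the stretched bottom, stretched top and not stretched top libraries held 1951, 20121 and 17206 cells and 76641034, 210814252 and 212503735 unique molecular identifier (UMI) counts. The median cell had 40387 UMIs in the stretched bottom library, against 9384 (stretched top) and 10964 (not stretched top). Barcodes over 20% mitochondrial UMIs were left out, and these were 36.1%, 13.6% and 27.0% of the barcodes in that order. This limit caps the mitochondrial level that any kept cell can show. Summed epithelial markers were at 5180, 4808 and 4841 CPM, with 11 of 11 at 1 CPM or more in each library. Summed endothelial, fibroblast, leukocyte and erythroid markers stayed between 2.21 and 16.2 CPM. Of the endothelial, fibroblast and leukocyte defining genes, CLDN5 in the stretched top library, PDGFRA and CD3E in the stretched bottom library, and DCN in the not stretched top library were at 0. Endothelial and erythroid sums were highest in the stretched bottom library, at 7.99 and 16.2 CPM, and their part in the results was not tested. Between 61 and 216 barcodes were shared by each pair of libraries, and between 6 and 88 among kept cells.

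The balance of the 2 genomes differed in the invaded cells. The 13 mitochondrially encoded transcripts took 4.26% of all UMIs in the stretched bottom library, against 10.1% (stretched top) and 9.49% (not stretched top). The 85 nuclear members took 3.46%, 2.68% and 2.41% in the same order. Thus the mitochondrial share was lowest and the nuclear share highest in the stretched bottom library. There were 1.23 mitochondrial UMIs for each nuclear UMI in the stretched bottom library, 3.79 in stretched top cells and 3.94 in not stretched top cells. The log2 of this ratio in the stretched bottom library minus that in the stretched top library was -1.62, a 3.08-fold lower ratio, with counting bounds that round to the same value. Against the not stretched top library it was -1.68, or 3.20-fold lower. Stretched top over not stretched top gave -0.06 (-0.06 to -0.05). Since it is a ratio within each library, this contrast does not depend on scaling between libraries.

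The contrast of the genomes had the same sign in every complex in the stretched bottom library, with different sizes. For stretched bottom over stretched top it was -2.15 in complex III, -2.06 in complex V, -1.50 in complex I and -1.45 in complex IV. In complex III there were 0.710 mitochondrial UMIs per nuclear UMI in the stretched bottom library and 3.16 in the stretched top library. In complex V the ratios were 0.261 and 1.09 in the same order, in complex I 1.20 and 3.39, and in complex IV 2.95 and 8.06. Complex III has a single mitochondrial member, MT-CYB, so its value is that of 1 gene over 9. For stretched top over not stretched top the contrasts were small and of mixed sign, at 0.15 in complex I, -0.13 in complex III, -0.18 in complex IV and 0.01 in complex V. The comparisons share libraries and are not independent of each other.

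**Figure D1:**
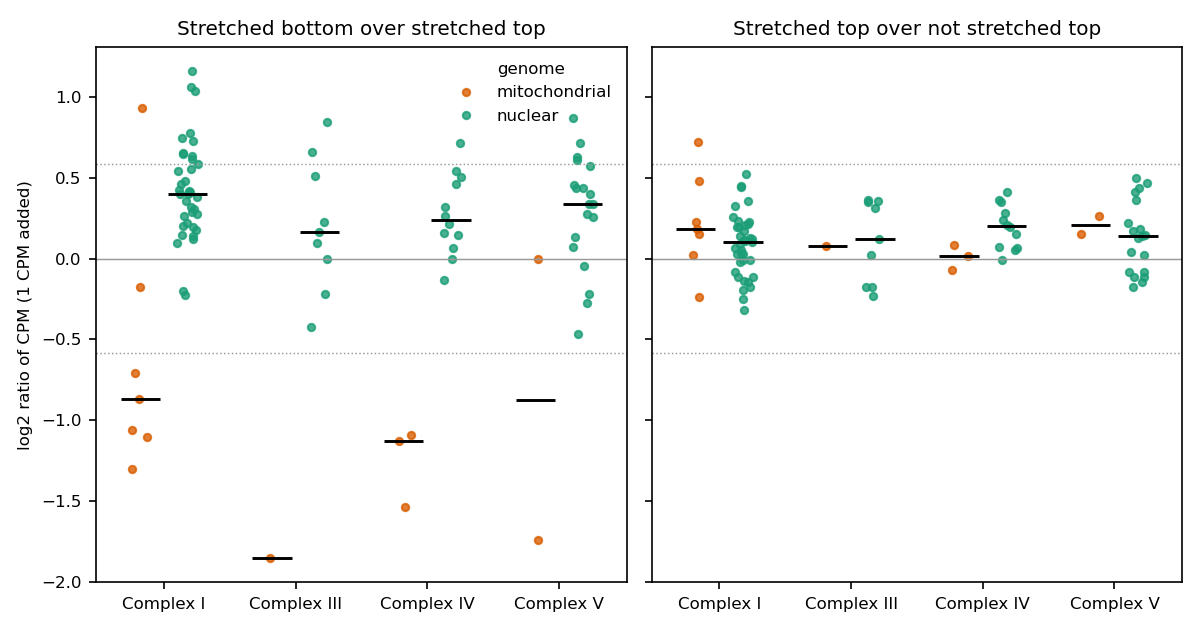
log2 ratio of CPM of each subunit by complex, for stretched bottom over stretched top (left) and stretched top over not stretched top (right), with mitochondrial genes in orange, nuclear genes in green, black bars for medians and dotted lines at 1.5-fold. On the left the mitochondrial genes lie below the nuclear genes in every complex except for MT-ND4L and MT-ND6 in complex I and MT-ATP8 in complex V, while on the right the 2 genomes overlap.

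UMIs per cell differed between the libraries, and their part in this contrast was not tested. Within 20000 to 50000 UMIs per cell the median mitochondrial share was 4.51% in the stretched bottom (732 cells), 8.19% in the stretched top (1471 cells) and 7.92% in the not stretched top library (2470 cells). Between 3000 and 8000 UMIs it was 4.67% (130 cells), 12.6% (6562 cells) and 12.8% (3765 cells) in that order. Between 8000 and 20000 UMIs the order was not kept, at 10.7% in 185 stretched bottom cells, 9.97% in 10880 stretched top and 9.77% in 9442 not stretched top cells. The contrast of the genomes for stretched bottom over stretched top was -1.41, 0.43 and -1.05 in the bins from 3000, 8000 and 20000 UMIs. For stretched bottom over not stretched top it was -1.67, 0.275 and -1.16 in the same bins. The contrast thus turned its sign in the middle bin in both comparisons. The stretched bottom cells of that bin also had the lowest nuclear share, a median of 2.02% against 2.71% in stretched top cells. With these 3 bins weighted equally the contrast was -0.64 for stretched bottom over stretched top and -0.81 for stretched bottom over not stretched top. Above 50000 UMIs there were 662 stretched bottom cells, at 3.53% mitochondrial and 3.62% nuclear, but only 3 stretched top and 22 not stretched top cells, too few to compare.

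After thinning all cells to 3000 UMIs, mitochondrial UMIs had medians of 4.17% (stretched bottom), 10.6% (stretched top) and 10.0% (not stretched top). The medians for nuclear members were 3.40%, 2.57% and 2.27%. Without thinning the mitochondrial medians were 4.09%, 10.4% and 9.64%. Thinning does not change the expected share of a cell, so these medians do not bear on the link between depth and share. Over the thinned cells, Spearman's rho between the mitochondrial share and total UMIs was -0.48, -0.38 and -0.39 in the same order. Thinning left out 242, 1205 and 1507 shallower cells. The quartiles of the thinned cells were 3.27% and 5.63% mitochondrial UMIs in the stretched bottom library and 8.13% and 13.4% in the stretched top library, so these ranges did not overlap. Across cells of a library, the mitochondrial and nuclear shares ran against each other, with Pearson's r of -0.59, -0.41 and -0.45 over 1709, 18916 and 15699 thinned cells. These are descriptions, since both shares come from the same fixed total and the same library.

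**Figure D2:**
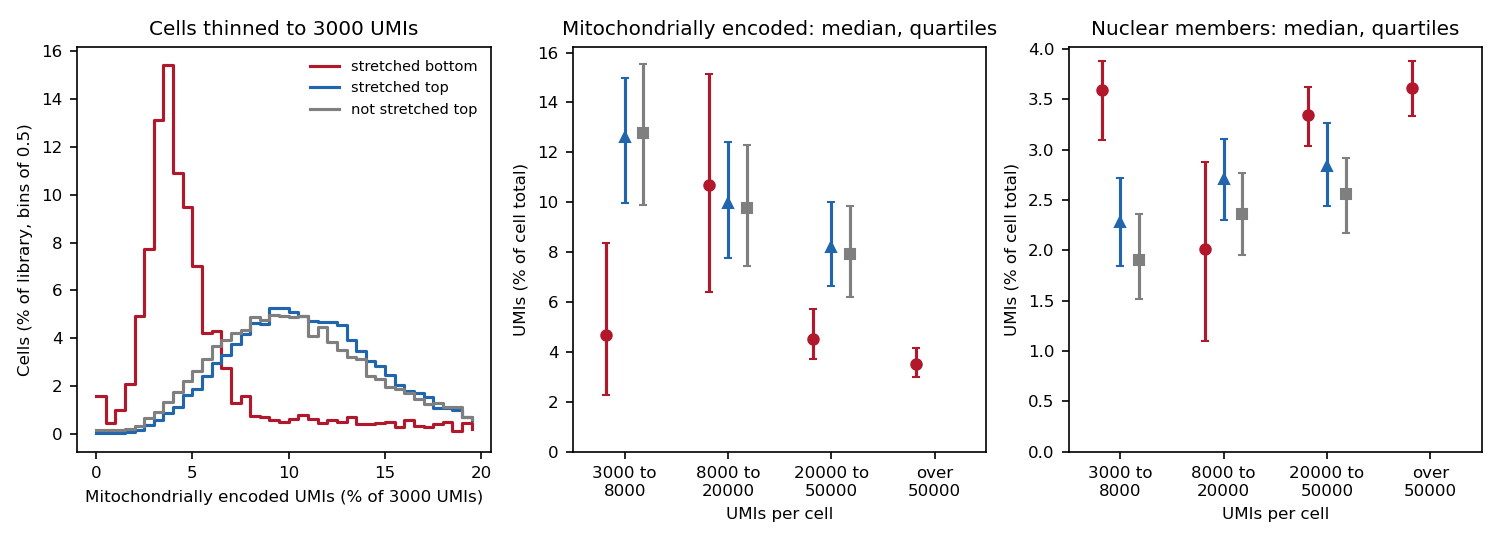
Distribution of the mitochondrially encoded share over cells thinned to 3000 UMIs (left), and median with quartiles of the mitochondrial (middle) and nuclear (right) shares of unthinned cells by UMIs per cell. The stretched bottom cells peak near 4% with a thin tail of higher values, and in the 8000 to 20000 bin their median of 10.7% lies with those of the top-channel cells.

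A gene is called here where the ratio of CPM, with 1 CPM added to each, passes 1.5-fold. Among all 12630 genes at 1 CPM or more, 7.02% were higher and 14.2% lower in the stretched bottom than in the stretched top library. Of the 13 mitochondrial genes, 1 was higher and 10 were lower, with a median log2 ratio of -1.09 against -0.07 for all genes. Of the 85 nuclear members, 19 were higher and none lower, with a median of 0.34, and 74 had a positive ratio. Short genes were raised more widely: all nuclear genes under 300 and from 300 to under 450 coding bases each had a median of 0.19. With the UMI bins weighted equally, 2 mitochondrial genes were higher and 3 lower, and 6 nuclear members were higher and 1 lower. The share of all genes called under these weights is not given here, so whether the members exceed it cannot be told. Of the calls above, 4 mitochondrial and 5 nuclear ones remained under these weights, in the same direction.

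MT-CYB encodes cytochrome b, the heme-bearing core of complex III (ENSG00000198727, mitochondrial bases 14747 to 15887). It had 2869 CPM in the stretched bottom library, against 10351 (stretched top) and 9797 (not stretched top). It was 3.61-fold lower in the stretched bottom than in the stretched top library (3.59 to 3.62), the largest drop among the members. MT-ATP6, the proton-channel subunit of the ATP synthase, had 2590, 8642 and 7779 CPM, 3.34-fold lower in the stretched bottom than in the stretched top library (3.32 to 3.35). The catalytic core of complex IV is made of MT-CO1, MT-CO2 and MT-CO3. MT-CO3 had 4994, 14476 and 15235 CPM and was 2.90-fold lower (2.89 to 2.91). MT-CO2 had 13039, 28435 and 26784 CPM and was 2.18-fold lower. MT-CO1 had 5966, 12728 and 12599 CPM and was 2.13-fold lower. In all of these the top-channel libraries lay close together and the stretched bottom library well below them. With the UMI bins weighted equally only MT-CYB, MT-CO3 and MT-ATP6 stayed past 1.5-fold lower, at log2 ratios of -1.09, -0.83 and -0.77.

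The 7 mitochondrial subunits of complex I form its proton-pumping membrane arm. MT-ND4 had 4787 CPM in the stretched bottom, 11768 in stretched top cells and 10590 in not stretched top cells. MT-ND1 had 1266, 2644 and 3112 CPM, and MT-ND5 had 572, 1043 and 891 CPM. MT-ND2 had 1661, 2718 and 2679 CPM. These 4 were 2.46-, 2.09-, 1.82- and 1.64-fold lower in the stretched bottom than in the stretched top library, in that order. None of the 4 stayed past the threshold with the UMI bins weighted equally, at log2 ratios of -0.43, -0.40, -0.15 and -0.06. MT-ND6 is the only member on the other strand of the mitochondrial genome. It had 239, 270 and 238 CPM, and did not pass the threshold in any comparison.

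MT-ND3 and MT-ND4L, both small complex I subunits, had patterns of their own. MT-ND3 (ENSG00000198840, bases 10059 to 10404) had 3621 CPM in the stretched bottom, 7782 in stretched top cells and 4725 in not stretched top cells. It was 2.15-fold lower in the stretched bottom than in the stretched top library, and 1.65-fold higher in the stretched top than in the not stretched top library (1.64 to 1.65). MT-ND4L (ENSG00000212907, bases 10470 to 10766) had 821, 431 and 308 CPM. It was the only mitochondrial gene called higher in the stretched bottom than in the stretched top library, at 1.91-fold (1.89 to 1.93). MT-ATP8, the small partner of MT-ATP6 (ENSG00000228253, bases 8366 to 8572), had 200, 200 and 167 CPM. Its ratio for stretched bottom over stretched top was -0.01 on the log2 scale, beside -1.74 for MT-ATP6. Weighted equally over UMI bins, the log2 ratios for stretched bottom over stretched top were 1.71 for MT-ND4L and 1.12 for MT-ATP8, and MT-ND3 lost its call at -0.21. For stretched bottom over not stretched top MT-ND3 then stood at 0.41, against -0.38 in the main values.

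MT-ATP8 with MT-ATP6 and MT-ND4L with MT-ND4 share their messengers and overlap in the genome. Their last 90 bases, read from the GENCODE transcripts on GRCh38, are printed to show how far reads at these ends can belong to either gene, with the shared bases in capitals: 46 for MT-ATP8 and 7 for MT-ND4L.
MT-ATP8: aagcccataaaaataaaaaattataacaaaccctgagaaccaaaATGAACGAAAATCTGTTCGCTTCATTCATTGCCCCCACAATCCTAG
MT-ND4L: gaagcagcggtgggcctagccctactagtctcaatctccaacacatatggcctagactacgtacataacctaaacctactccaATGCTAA
The split of counts within both pairs is therefore uncertain, and 3' counting reads the end of the shared messenger. The annotation also holds between 2 (MT-ATP8) and 45 (MT-CO1) nuclear pseudogene copies of each mitochondrial gene, and how many reads they share with the genes was not measured.

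**Figure D3:**
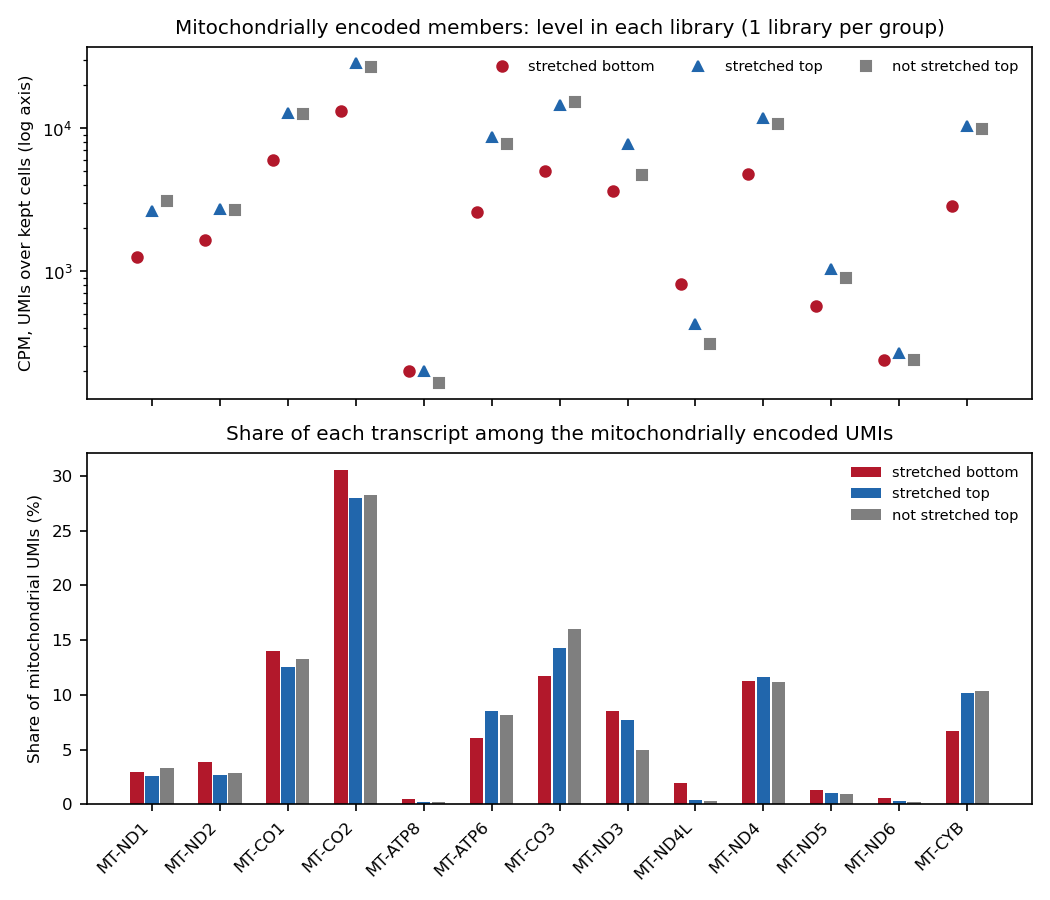
Level of the 13 mitochondrially encoded genes in each library in CPM on a log axis (top), and the share of each among mitochondrially encoded UMIs (bottom), in genome order, 1 library per group. The stretched bottom points lie below both top-channel libraries for 10 genes, and MT-ND4L is highest there at 821 CPM.

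The make-up of the mitochondrial transcripts, counted as shares of their own sum, also differed by library. MT-ND3 made up 8.50% in the stretched bottom, 7.67% in stretched top cells and 4.98% in not stretched top cells. MT-ND4L made up 1.93%, 0.424% and 0.325%. MT-CYB made up 6.73%, 10.2% and 10.3%, and MT-CO3 11.7%, 14.3% and 16.1%. These differences were present at every depth compared. Across UMI bins the MT-ND3 share lay between 8.32% and 10.1% in the stretched bottom library, between 7.45% and 7.73% in the stretched top and between 4.88% and 5.14% in the not stretched top library. The MT-ND4L share lay between 1.57% and 2.20%, 0.398% and 0.430%, and 0.311% and 0.338% in that order. The ranges of the libraries did not overlap for either gene, nor for MT-CO3, at 10.4% to 11.9%, 14.0% to 14.4% and 16.0% to 16.1%. For MT-CYB the stretched bottom range, 6.44% to 7.08%, lay below both others, which overlapped each other. In the 8000 to 20000 bin, where the total mitochondrial share of stretched bottom cells was near that of the top channel, MT-ND4L was still at 2.20% against 0.427% in stretched top cells.

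**Figure D4:**
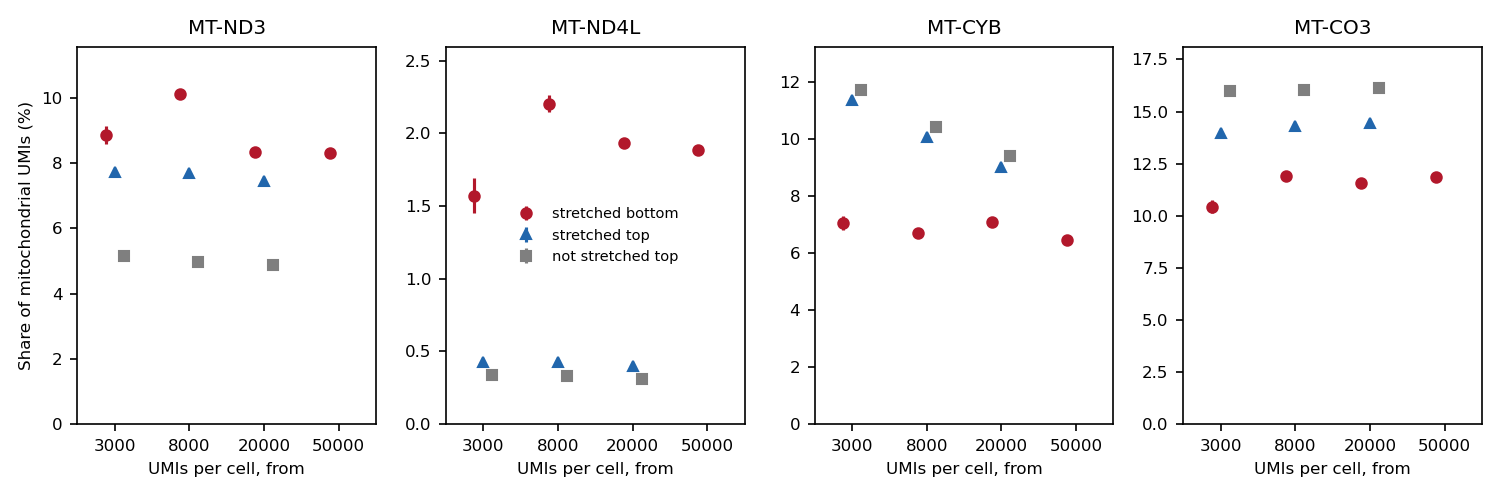
Share of 4 transcripts among mitochondrially encoded UMIs by depth of the cells (lower edge of each bin), with 95% counting intervals, 1 library per group. Each library keeps its own level of MT-ND3, MT-ND4L and MT-CO3 across bins, while the MT-CYB share of the top-channel libraries is lower in deeper cells and stays above 9%.

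The nuclear members were described by their place in each complex. Counts of calls for stretched bottom over stretched top stand beside 7.02% of all genes higher and 14.2% lower. In complex I, 11 of 30 accessory subunits, which surround and stabilise the core, were higher in the stretched bottom than in the stretched top library, with a median log2 ratio of 0.44. None of the 7 nuclear core subunits, which carry flavin and iron-sulphur clusters, passed the threshold, and their median was 0.20. The accessory subunits called were NDUFA1, NDUFA3, NDUFA6, NDUFA7, NDUFA13, NDUFAB1, NDUFB2, NDUFB5, NDUFB8, NDUFB9 and NDUFC1. With the UMI bins weighted equally, NDUFA3, NDUFA7, NDUFA13 and NDUFB5 remained past the threshold. NDUFA3 (ENSG00000170906, chromosome 19) had 253 CPM in the stretched bottom, 121 in stretched top cells and 83.9 in not stretched top cells, 2.10-fold higher in the stretched bottom than in the stretched top library (2.06 to 2.14). NDUFA7 had 111, 49.1 and 41.7 CPM and was 2.25-fold higher (2.19 to 2.32), but 75.9% of its last 1000 exonic bases overlap another gene on the same strand, so its counts are uncertain. NDUFA13 had 492, 240 and 210 CPM with the same limit over 44.1%. At the other end, NDUFS1, the largest core subunit, had 43.1, 50.6 and 58.1 CPM, and NDUFS4 had 126, 145 and 143 CPM. NDUFS5, with the most counts of the nuclear complex I members, had 836, 608 and 531 CPM. Among 8 NDUFAF assembly factors, NDUFAF4 was called higher, at 95.4, 51.1 and 48.6 CPM, and the median of the factors was 0.38. NDUFAF4 lost its call with the UMI bins weighted equally, at 0.42.

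In complex III, 2 of 6 small subunits and none of 3 large ones were called higher, with medians of 0.30 and 0.16. UQCRQ, a small subunit, had 673 CPM in the stretched bottom, 375 in stretched top cells and 294 in not stretched top cells, 1.80-fold higher in the stretched bottom than in the stretched top library (1.78 to 1.82). UQCR11 had 591, 375 and 294 CPM and was 1.58-fold higher. Both calls were lost with the UMI bins weighted equally, at 0.55 for UQCRQ and 0.44 for UQCR11. UQCR10 had 642, 451 and 350 CPM and stayed under the threshold in this comparison. The core protein UQCRC1 had 94.0, 127 and 143 CPM, lowest in the stretched bottom library. UQCRC2, its partner, had 110, 98.5 and 116 CPM. The Rieske iron-sulphur protein UQCRFS1 had 226, 193 and 190 CPM. UQCRH, the hinge protein, had 1011, 1013 and 932 CPM, and its near-identical copy UQCRHL had 1.33, 1.71 and 2.06 CPM, so the division between them is uncertain.

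Of 12 nuclear members of complex IV, COX8A alone was called, a share near the 7.02% of all genes called higher. COX8A had 732, 447 and 390 CPM, 1.64-fold higher in the stretched bottom than in the stretched top library (1.62 to 1.66). Part of its 3' end, 34.5%, is shared with another gene. The call was lost with a stricter cell filter (2000 genes, 5000 UMIs and 10% mitochondrial), at 0.54, and with the UMI bins weighted equally, at 0.48. COX4I1, which enters the complex early in its assembly, had 928, 1019 and 970 CPM and had the most counts of the nuclear complex IV members. COX7B had 513, 373 and 290 CPM, and COX6B1 698, 492 and 426 CPM. Ratios of the 12 ran between -0.13 and 0.71. NDUFA4, now counted with complex IV, had 779, 535 and 481 CPM. COX7A2 had 874, 783 and 589 CPM. COX7A1, its heart and muscle form and no member by level, had 15 UMIs in the stretched bottom, 0 in the stretched top (which allows up to 0.0142 CPM) and 1 in the not stretched top library.

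In the ATP synthase, 3 of 5 small membrane subunits were called higher in the stretched bottom than in the stretched top library, with a median of 0.63. ATP5ME had 673, 369 and 266 CPM, 1.82-fold higher (1.80 to 1.84). ATP5MD had 994, 644 and 457 CPM and was 1.54-fold higher. ATP5MF had 558, 339 and 250 CPM, with 46.2% of its 3' end shared. Of the 5 subunits of the F1 head and stalk, the small epsilon subunit ATP5F1E was called, at 1452, 950 and 715 CPM. Of these 4 calls, ATP5ME remained with the UMI bins weighted equally, at 0.62, while ATP5MF, ATP5MD and ATP5F1E stood at 0.52, 0.25 and 0.30. The catalytic beta subunit ATP5F1B had 456, 416 and 469 CPM, and the alpha subunit ATP5F1A had 175, 212 and 229 CPM. The c-ring genes ATP5MC1, ATP5MC2 and ATP5MC3 encode the same mature protein. They had 774, 522 and 464 CPM, 549, 417 and 376 CPM, and 961, 761 and 807 CPM in the stretched bottom, stretched top and not stretched top libraries, and none was called in this comparison. None of the 4 subunits of the peripheral stalk, which holds the head still against the turning ring, was called, and their median was 0.17. ATP5IF1, the inhibitor of ATP hydrolysis, had 554, 464 and 410 CPM.

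In stretched top over not stretched top, 0.206% of all genes were called higher and 0.934% lower. MT-ND3 was the only mitochondrial gene called, at a log2 ratio of 0.72, and of 85 nuclear members none was called. The MT-ND3 call was lost with no cell filter, at 0.49, and at a 2-fold threshold. The median log2 ratio was 0.15 for mitochondrial and 0.12 for nuclear members, against -0.17 for all genes. Trimmed mean of M-values (TMM) scaling put the median of all genes at -0.01, with 95 of all 12630 genes called higher and 22 lower. Of the nuclear members, 8 were then called higher and none lower: ATP5F1E, ATP5MD, ATP5ME, ATP5MF, COX7A2, NDUFA1, NDUFA3 and NDUFB2. MT-ND4L was added to MT-ND3 under the same scaling. The 7 nuclear core subunits of complex I had a median of -0.11, which turned to 0.06 with TMM. The small membrane subunits of the ATP synthase had a median of 0.44, and 0.61 with TMM.

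For stretched bottom over not stretched top, 6.18% of all genes were called higher and 25.1% lower, with a median of -0.24. Of the mitochondrial genes 1 was higher and 9 were lower, and of the nuclear members 32 were higher and 2 lower. The lower ones were UQCRC1 and ATP5S, a coupling factor at 9.25, 13.2 and 14.6 CPM, and neither was called lower with TMM. Both bottom comparisons use the same stretched bottom library. NDUFA3 was 3.02-fold higher in the stretched bottom than in the not stretched top library (2.96 to 3.08) and ATP5ME 2.53-fold (2.50 to 2.56).

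The ratios of nuclear subunits ran with the length of their coding sequence. Subunits here are the 77 nuclear members other than the NDUFAF assembly factors, so ATP5IF1, ATP5S and the copy UQCRHL are included. In stretched top over not stretched top, Spearman's rho between log2 ratio and coding length was -0.84 over 77 subunits, beside -0.36 over 12604 nuclear genes. The 21 subunits under 300 coding bases had a median of 0.35, the 26 from 300 to under 450 bases 0.17, the 17 from 450 to under 750 bases 0.02, and the 13 of 750 or more bases -0.14. All nuclear genes in the same classes had medians of 0.05, 0.01, -0.08 and -0.19. In stretched bottom over stretched top rho was -0.47 over subunits and -0.23 over all nuclear genes, with subunit medians of 0.54, 0.35, 0.18 and 0.16. All nuclear genes in the same classes had medians of 0.19, 0.19, 0.08 and -0.11 in that comparison. Within UMI bins, rho for stretched top over not stretched top was -0.83, -0.83 and -0.81. For stretched bottom over stretched top it was -0.13, 0.00 and -0.50 in the bins from 3000, 8000 and 20000 UMIs, so there the relation was seen mainly in the deeper cells. For stretched bottom over not stretched top it was -0.48, -0.40 and -0.73, negative in each of these bins. By complex, rho for stretched top over not stretched top was -0.88 in complex I (37 subunits), -0.79 in complex III (9), -0.39 in complex IV (12) and -0.91 in complex V (19). For stretched bottom over stretched top it was -0.40, -0.64, -0.63 and -0.76 in the same order. No nuclear subunit of complex IV reaches 750 coding bases. Core subunits are long and small membrane subunits short, so role and length cannot be told apart here. With transcript length in place of coding length, rho for stretched top over not stretched top was -0.38 over subunits and -0.27 over all nuclear genes. For stretched bottom over stretched top it was -0.29 and -0.26, so there the subunits were near all genes. These correlations are across genes of the same pair of libraries, which are not independent replicates, and carry no test.

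**Figure D5:**
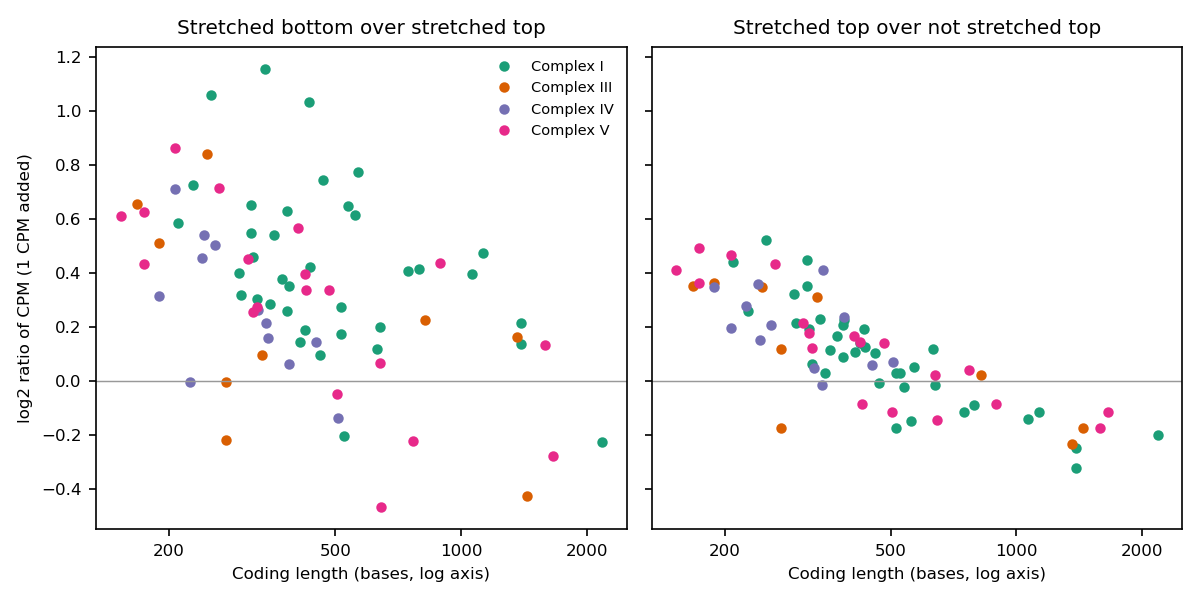
log2 ratio of CPM against coding length for 77 nuclear subunits (ATP5IF1, ATP5S and UQCRHL included), coloured by complex. Stretched bottom over stretched top is on the left and stretched top over not stretched top on the right, 1 library per group. On the right the ratios slope down with length, from a median of 0.35 under 300 bases to -0.14 at 750 bases or more over all subunits.

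The promoters of 4 nuclear members called higher in the stretched bottom than in the stretched top library are shown, 1 for each complex. They run from 100 bases before to 20 after the start, from RefSeq on GRCh38.p14. UQCRQ and COX8A lost these calls with the UMI bins weighted equally. Capitals mark the letters searched for on both strands: CGCATGCG for nuclear respiratory factor 1 (NRF1) and CCGGAAG for ETS factors (CTTCCGG when read on the other strand), with AAGATGGCG for YY1.
NDUFA3 (chr19:54102755-54102874, + strand): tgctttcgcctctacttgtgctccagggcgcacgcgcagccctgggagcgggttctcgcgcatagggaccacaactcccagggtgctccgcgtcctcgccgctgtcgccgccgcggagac
UQCRQ (chr5:132866542-132866661, + strand): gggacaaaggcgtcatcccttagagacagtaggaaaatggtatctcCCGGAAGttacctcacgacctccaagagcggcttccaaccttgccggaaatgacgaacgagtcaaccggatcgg
COX8A (chr11:63974520-63974639, + strand): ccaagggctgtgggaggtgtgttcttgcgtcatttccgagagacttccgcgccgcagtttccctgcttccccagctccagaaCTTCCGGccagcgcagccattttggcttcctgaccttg
ATP5ME (chr4:674257-674376, - strand): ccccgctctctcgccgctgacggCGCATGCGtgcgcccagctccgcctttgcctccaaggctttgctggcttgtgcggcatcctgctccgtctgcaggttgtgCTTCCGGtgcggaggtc
Over 300 bases, 70 nuclear members had a promoter in the table. The NRF1 letters stood in 14.3% of them, against 3.96% of 10240 promoters of genes at 1 CPM or more and 2.19% of all 27305. The ETS letters stood in 27.1%, 19.5% and 10.7%, and the YY1 letters in 10.0%, 4.02% and 1.85%. At least 1 of the 3 was found in 44.3% of members and 25.3% of the expressed genes' promoters. The motifs do not overlap each other in the sequences printed. NDUFA3 held none of these letters in the window printed. UQCRC1 and ATP5F1A, whose promoters are not printed, also held none in the same window. Both were lower in the stretched bottom than in the stretched top library, though not past the threshold. Over 300 bases UQCRC1 held the YY1 letters. Whether the letters go with the calls was not tested. A match is a description of letters and not a binding site.

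Genes that act on the same complexes but fall outside the names were counted beside them, against 7.02% of all genes higher and 14.2% lower in stretched bottom over stretched top. In stretched top over not stretched top no gene of these lists was called. In stretched bottom over stretched top, 2 of 8 genes of complex II and its assembly, all nuclear, were higher, with a median of 0.26: SDHD, a membrane anchor, had 144, 74.0 and 76.3 CPM in the stretched bottom, stretched top and not stretched top libraries, and SDHAF1 had 32.9, 19.3 and 21.5 CPM. Of cytochrome c (CYCS), cytochrome c1 (CYC1) and HCCS, which attaches heme to them, CYCS was called, at 580, 383 and 348 CPM. Of complex III assembly genes 2 of 6 were higher, of complex IV assembly genes 5 of 24, of ATP synthase assembly genes 1 of 4 and of other complex I assembly genes 0 of 8, with none lower. The 5 include PET100, with 39.6% of its 3' end shared, and SLIRP, which is counted again among the RNA processing genes below. LRPPRC, COA1 and PHB2 also stand in more than 1 list and were not called. Counts of these lists over UMI bins are not given here. COX17, the copper carrier to complex IV, had 276, 148 and 108 CPM.

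Of 15 genes that copy and transcribe mitochondrial DNA, MTERF3, a regulator of that transcription, was higher, at 43.0, 22.0 and 22.6 CPM, and none was lower, a share near that of all genes. TFAM, which packages the DNA and starts transcription, had 61.5, 56.7 and 53.2 CPM, and the polymerase POLRMT 29.6, 28.3 and 31.1 CPM. Of 16 genes of mitochondrial RNA processing and decay SLIRP, which stabilises mitochondrial messengers together with LRPPRC, was higher, at 513, 299 and 232 CPM, again a share near that of all genes, and LRPPRC had 137, 127 and 143 CPM. None of 10 nuclear regulators was called. PPARGC1A, a coactivator of respiratory genes, had at most 0.0282 CPM in any library. Of 21 membrane and import genes, 5 were higher and none lower, among them TIMM44 at 63.1, 34.8 and 38.1 CPM. Of 9 mitophagy genes, 5 were lower and none higher. BNIP3L, a mitophagy receptor of the outer membrane, had 24.8, 72.7 and 77.9 CPM, and PINK1, the kinase that marks damaged mitochondria, had 10.5, 23.4 and 26.0 CPM.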

How the data were processed

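Per the file headers, the deposited matrices hold whole-number UMI counts per gene and barcode, made by the authors with Cell Ranger 7.0.0. Per the submitters' processing notes, reads were placed on hg38. The annotation version and whether intronic reads were counted are not given in the sources used here. Per the labels' protocols, libraries were made with a droplet 3' kit. Replicates were not available. Features and barcodes other than the members were used for totals and for the shares of all genes.

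A cell needed 500 genes, 1000 UMIs and no more than 20% mitochondrial UMIs to be kept. No doublets were removed. UMIs were summed over kept cells, divided by the library total (CPM) and compared as log2 ratios with 1 CPM added, for genes with a mean of at least 1 CPM. A zero count allows up to 3 counts, or 0.0391, 0.0142 and 0.0141 CPM in the stretched bottom, stretched top and not stretched top libraries. The contrast of the genomes is a difference of log2 UMI ratios with a counting interval. Intervals are Poisson for CPM, binomial for folds and Clopper-Pearson for shares. UMIs of PCR-amplified libraries are not fully independent. No count test was run, since each group had 1 library. Coordinates, coding lengths and shared 3' ends over the last 1000 exonic bases came from GENCODE on GRCh38. For TMM factors, edgeR 4.0.16 was run under R 4.3.3. Python 3.11.15 was used with pandas 2.3.3, numpy 2.4.6, scipy 1.17.1 and matplotlib 3.10.9. The arithmetic of ratios and calls was checked on simulated Poisson counts. These held no variation between libraries or cells beyond counting, so they do not bear on calls from 1 library per group.

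Named genes were all mitochondrial members, the nuclear members with the most counts and the 2 highest and 2 lowest ratios per complex in each comparison, the highest and lowest assembly factor, paralogue pairs, and the extremes of the other lists. Further members named for their role were chosen after their values were seen. Members, lists and the depth and length summaries were chosen with earlier results of these data known. Alternatives were other cell filters, scalings, totals, weights, added CPM, minimum levels and thresholds, and leaving out members with shared 3' ends.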

Additional observations from a re-analysis of the deposited data

How the results depend on the processing

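Values are given for stretched top over not stretched top, then stretched bottom over stretched top, then stretched bottom over not stretched top. Within the bin from 8000 UMIs the contrast of the genomes was positive for both bottom comparisons. It was 0.43 there for stretched bottom over stretched top and 0.275 for stretched bottom over not stretched top. The contrast was negative under every alternative run over all cells, beside -0.06, -1.62 and -1.68 in the main values. It was -0.33, -1.27 and -1.60 with no cell filter, -0.15, -1.46 and -1.61 with no mitochondrial limit, and -0.10, -1.18 and -1.28 with a stricter filter (2000 genes, 5000 UMIs, 10% mitochondrial). It was -0.0637, -1.61 and -1.67 without the 5% of cells with the most UMIs, -0.0257, -1.37 and -1.40 with equal cell weights, -0.17, -0.64 and -0.81 with equal weights over UMI bins, and -0.0335, -1.54 and -1.58 without members with shared 3' ends. For stretched top over not stretched top, mitochondrial calls moved from 1 to 0 with no cell filter and at 2-fold, and to 2 with TMM and with median of ratios scaling, while nuclear calls moved from 0 to 8 under both scalings. Of all genes, 95 were higher and 22 lower with TMM and 99 and 19 with median of ratios, against 26 and 118 in the main values. For stretched bottom over stretched top, equal weights over UMI bins gave 5 mitochondrial calls, against 11 in the main values (4 shared, MT-ATP8 added), and 7 nuclear calls, against 19 (5 shared, NDUFAF2 and UQCRHL added). There nuclear calls were 9 with the stricter filter, 11 with totals without mitochondrial genes and 3 at 2-fold. Under those totals 605 of all genes were higher and 2227 lower. For stretched bottom over not stretched top, the UMI bins gave 6 mitochondrial calls, against 10, and 20 nuclear calls, against 34, and a 2-fold threshold gave 11 nuclear calls. The share of all genes called over UMI bins, with the stricter filter or at 2-fold is not given here. These counts of members can therefore not be set against it. Calls in stretched bottom over stretched top were followed over the alternatives for 22 members named by the set rule. NDUFA1, NDUFA6, NDUFA13, NDUFAB1, NDUFB5, NDUFB8, NDUFB9 and NDUFC1 were also called but are not in this count. Of the 22, 7 were called under all alternatives but the 2-fold threshold: ATP5ME, MT-ATP6, MT-CO3, MT-CYB, MT-ND4L, NDUFA3 and NDUFA7. Lost under at least 1 alternative were ATP5F1E, ATP5MD, ATP5MF, COX8A, MT-CO1, MT-CO2, MT-ND1, MT-ND2, MT-ND3, MT-ND4, MT-ND5, NDUFAF4, NDUFB2, UQCR11 and UQCRQ, the members with shared 3' ends not being evaluated where these were left out. The cause of these shifts was not tested. No paired analysis was possible because each group had 1 library. TMM moved the median of all genes from -0.17 to -0.01 in the first comparison. Depth limits the stretched bottom library to 130 and 185 cells in the shallower bins.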

Other observations

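Barcodes over 20% mitochondrial UMIs, left out of all comparisons, were looked at separately where they had at least 500 genes and 1000 UMIs. There were 386 such barcodes in the stretched bottom library, 1813 among stretched top cells and 2547 among not stretched top cells, with medians of 3474, 5219 and 4471 UMIs. Their median nuclear member share was 0.751%, 1.62% and 1.23%. For 4 transcripts the order between libraries was that of the kept cells: MT-ND3 made up 10.2%, 7.82% and 4.95% of mitochondrial UMIs, MT-ND4L 2.07%, 0.440% and 0.313%, MT-CO3 11.4%, 14.2% and 16.3%, and MT-CYB 6.49%, 10.3% and 10.4%. MT-CO2, with the most mitochondrial counts, stood at 26.5%, 26.5% and 26.9% in these barcodes, against 30.6%, 28.0% and 28.2% in kept cells, so its order differed.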
